A study of Homo sapiens with 8 samples.

Results

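The expression of 10 genes of Wnt signalling was followed across 8 RNA-sequencing libraries of HMLE, a mammary epithelial cell line of human origin that was made immortal. The 10 members were the ligand WNT5A, the secreted inhibitors DKK1 and DKK3, the receptors FZD2 and FZD7, the DNA-binding factors TCF7L1, TCF7, TCF7L2 and LEF1, and the feedback gene AXIN2. They were taken by symbol, with all of their RefSeq transcripts, which gave 33 of the 48175 transcripts and 10 of the 25166 named genes in the table. The filter on low values, at least 1 FPKM in at least 2 libraries, was passed by 14 of the 33 transcripts, and by none of AXIN2. The set was chosen by measured values of these same libraries, namely the lower DKK1 and higher TCF7L1 level in SOX4-shRNA cells. For all 10 members the difference between SOX4-shRNA and scrambled-shRNA cells is therefore given as a description, with no test. The TGF-β contrasts use the same libraries, so the response of DKK1 and TCF7L1 is not independent of that choice either.

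All cells had been transduced with a lentivirus and selected with puromycin at 0.5 µg/mL. They carried either the scrambled shRNA SHC002 or a single shRNA that targets the HMG-box transcription factor SOX4, so an effect of that shRNA on other targets cannot be told apart from loss of SOX4. Cells of each kind were left untreated or received TGF-β for 16 h, and each of the 4 groups held 2 libraries. Nothing in the labels ties the libraries to separate cultures, so a p-value speaks only of the scatter between samples, and that scatter may be technical. Values are FPKM, in which reads are divided by the length of the transcript and the size of the library.

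In the canonical Wnt pathway, secreted ligands bind Frizzled receptors and LRP co-receptors, a cytoplasmic complex then stops destroying β-catenin, and β-catenin joins TCF/LEF factors on DNA. Dickkopf proteins such as DKK1 block the co-receptor outside the cell, and AXIN2 is a target gene that feeds back on the destruction complex. Ligands such as WNT5A mostly signal without β-catenin. In mammary epithelium, Wnt signals are known for their part in the basal and stem cell compartment. TCF/LEF and SOX factors share a related DNA-binding domain of the HMG-box type.

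Promoter sequences are shown for DKK1 and TCF7L1, whose levels chose the set, and for WNT5A, the member with the lowest ratio of SOX4-shRNA to scrambled-shRNA means, as the 250 bases before the RefSeq start, 5′ to 3′ on the strand of the gene. They come from RefSeq (GRCh38.p14), which held windows for 6 of the 10 members. Capitals mark CTTTGTT, the core that SOX factors recognise. The windows are chr10:52314031-52314280 (plus strand) for DKK1, chr2:85133142-85133391 (plus strand) for TCF7L1 and chr3:55487307-55487556 (minus strand) for WNT5A.
DKK1: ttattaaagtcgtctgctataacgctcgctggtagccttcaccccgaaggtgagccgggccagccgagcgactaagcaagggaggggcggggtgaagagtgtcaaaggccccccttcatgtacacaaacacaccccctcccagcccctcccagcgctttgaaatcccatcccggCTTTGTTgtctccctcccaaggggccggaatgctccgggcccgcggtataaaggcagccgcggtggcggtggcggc
TCF7L1: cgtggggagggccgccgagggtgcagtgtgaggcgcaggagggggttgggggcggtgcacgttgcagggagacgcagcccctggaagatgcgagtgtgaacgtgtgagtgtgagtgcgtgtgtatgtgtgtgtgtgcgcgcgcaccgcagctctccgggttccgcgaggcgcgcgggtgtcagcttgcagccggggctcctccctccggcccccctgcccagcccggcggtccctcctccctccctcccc
WNT5A: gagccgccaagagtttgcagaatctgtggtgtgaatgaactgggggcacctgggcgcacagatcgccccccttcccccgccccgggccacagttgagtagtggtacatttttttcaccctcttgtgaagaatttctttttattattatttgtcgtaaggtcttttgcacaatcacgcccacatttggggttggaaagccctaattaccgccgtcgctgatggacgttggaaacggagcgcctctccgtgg

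Windows from 250 bases before to 50 after the start were searched on both strands for CTTTGTT and for CTTTGAT, the core that TCF/LEF factors recognise. The core CTTTGTT was present in 5.2% of all 35116 promoter windows, and CTTTGAT in 2.62%. Among the members, CTTTGTT began 76 bases before the start of DKK1 and 133 bases before that of TCF7L2, and its reverse complement AACAAAG began 50 bases before that of TCF7. CTTTGAT was found in no window of the 6 members. A match of letters is a description of the sequence and not a measured binding site.

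SOX4 itself, without TGF-β, gave 8.74 and 8.04 FPKM in scrambled-shRNA cells, and 18.7 and 17.6 with it. The SOX4-shRNA libraries held 0.923 and 1.02 FPKM untreated, and 2.37 and 1.88 with TGF-β. All 4 lay below the lowest scrambled-shRNA library (log2 fold change -2.25 ± 0.13 untreated and -2.62 ± 0.13 with TGF-β, SE; limma adjusted p = 0.00016 and 6e-05). The epithelial markers CDH1 (74.1 to 95.4 FPKM), EPCAM (55.8 to 114) and KRT5 (at least 2890) were present in every library. The summed level of all 9 epithelial markers was lower in SOX4-shRNA cells, at 5970 to 6880 FPKM untreated against 8280 to 8850, and at 7730 to 7850 with TGF-β against 9180 to 9210. Most of this sum was KRT5, KRT14 and KRT17. Of the 9, 6 were lower in both untreated SOX4-shRNA libraries than in both scrambled ones, and 4 with TGF-β. Untreated, the mean of KRT17 was 1750 FPKM in scrambled-shRNA and 725 in SOX4-shRNA cells. In the same order EPCAM was at 73.6 and 105, TP63 at 28.3 and 32.5, and CDH1 at 75.9 and 77.0. The lost decimal marks of KRT17, KRT8, KRT18, TP63 and ITGA6 were read by closeness between libraries and not settled from whole reads. The restored whole reads of the 5324 genes tested summed to 4.22 M to 5.66 M per library. Among 7 fibroblast markers, each was lower in both untreated SOX4-shRNA libraries than in both scrambled ones, and 6 were with TGF-β. Their summed level was 149 to 165 FPKM untreated and 211 to 236 with TGF-β in scrambled-shRNA cells, and 50.5 to 66.7 and 86.7 to 108 in SOX4-shRNA cells. Most of this sum was COL1A1 and THY1, while LUM and PDGFRA did not exceed 0.105 FPKM. Of the 3 endothelial and 3 blood cell markers, CDH5 and CD3E were listed at 0 in every library and none exceeded 0.168 FPKM. In bulk RNA, fewer cells of a kind and less RNA per cell cannot be told apart, and the part of the fibroblast and epithelial markers in the differences between shRNAs was not tested.

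**Figure D1:**
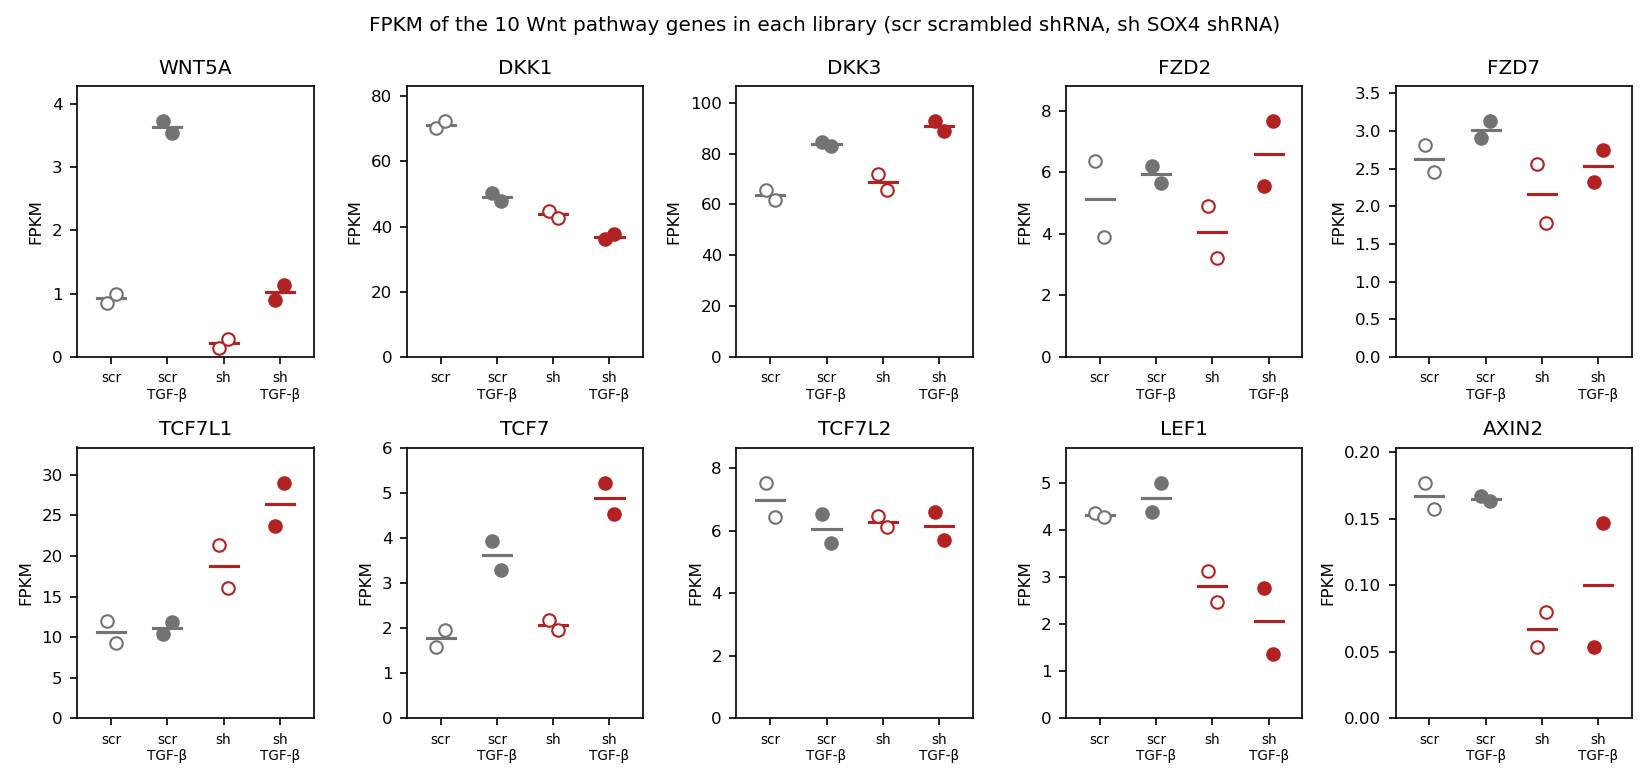
FPKM of each member (linear y axis, scaled for each panel) as 2 points for every group with a line at their mean; scrambled shRNA is grey and SOX4 shRNA red, and points are open without TGF-β and filled with it. DKK1 went from 71.2 FPKM in untreated scrambled-shRNA cells to 36.9 in TGF-β-treated SOX4-shRNA cells, and TCF7L1 from 10.6 to 26.3.

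WNT5A, the ligand, had the largest relative differences of the 10 members. Its 2 transcripts summed to 0.843 and 1.0 FPKM in untreated scrambled-shRNA cells and to 3.72 and 3.53 with TGF-β. In SOX4-shRNA cells the sums were 0.147 and 0.288 untreated, and 0.905 and 1.13 with TGF-β. The groups with and without TGF-β did not overlap in either kind of cell, and TGF-β-treated SOX4-shRNA cells stood near the level of untreated scrambled-shRNA cells. These values rest on 84, 72, 312 and 267 reads in scrambled-shRNA libraries, in the order just used, and on 11, 26, 72 and 102 reads in SOX4-shRNA libraries.

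The mean of WNT5A with TGF-β was 3.93 times the untreated mean in scrambled-shRNA cells (3.63 ± 0.137 against 0.922 ± 0.112 FPKM; SD, n = 2) and 4.67 times in SOX4-shRNA cells (1.02 ± 0.156 against 0.217 ± 0.0995). The planned test took transcripts separately, and there neither of the WNT5A transcripts passed, where 0.799% of 19396 transcripts were called in scrambled-shRNA and 1.06% in SOX4-shRNA cells. NM_001256105 had a log2 fold change of 1.47 ± 0.31 (SE; limma adjusted p = 0.13) in scrambled-shRNA cells and NM_003392 0.36 ± 0.33 (adjusted p = 0.76). In SOX4-shRNA cells the values were 0.11 ± 0.31 (adjusted p = 0.96) and 0.69 ± 0.33 (adjusted p = 0.49). The split between the transcripts varied between libraries of a group: with TGF-β in SOX4-shRNA cells, NM_001256105 was at 0.427 and 0.000294 FPKM.

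As a sum over transcripts, a measure added after seeing the data, WNT5A was higher with TGF-β in scrambled-shRNA cells, at 1.27 ± 0.13 (SE; limma adjusted p = 0.0033), and in SOX4-shRNA cells, at 0.73 ± 0.13 (adjusted p = 0.018). These fold changes are on the log2(FPKM + 1) scale, which understates the change of genes with low values. With 0.1 FPKM added in place of 1 they were 1.87 and 1.84. The result in scrambled-shRNA cells passed in each fit that left out a library (adjusted p at most 0.048). In SOX4-shRNA cells it was lost without untreated replicate 1 (adjusted p = 0.074), without TGF-β replicate 2 (0.10) or with the compared groups fitted alone (0.08). Both libraries of a group reached the filter of 1 FPKM only in TGF-β-treated scrambled-shRNA cells, so WNT5A entered the test through the group where it was high, and it is left out of the counts of members called. In a fit of all genes without the filter, its values were 1.27 ± 0.12 (adjusted p = 0.0026) and 0.73 ± 0.12 (adjusted p = 0.016).

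Between shRNAs, the mean of WNT5A in SOX4-shRNA cells was 0.236 times that in scrambled-shRNA cells untreated, and 0.28 times with TGF-β. All 4 libraries of either pair of groups were apart in that direction. Whether the TGF-β response itself differed between the cells depended on the scale. On log2(FPKM + 1) the difference of the responses was -0.54 (95% confidence interval -0.98 to -0.1; limma unadjusted p = 0.022, adjusted p = 1.0), and on whole reads with voom it was 0.38 ± 0.43 (SE).

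DKK1, the secreted inhibitor of the LRP co-receptors, was highest in untreated scrambled-shRNA cells. It held 70.1 and 72.3 FPKM there, 50.3 and 47.8 with TGF-β, 44.8 and 42.6 in untreated SOX4-shRNA cells, and 36.1 and 37.6 once these had received TGF-β. No library of 1 group lay within the range of another. From the highest, the order of the group means was 71.2 ± 1.6, 49.0 ± 1.79, 43.7 ± 1.57 and 36.9 ± 1.11 FPKM (SD, n = 2), so neighbours in that order differed by more than their SD.

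TGF-β lowered DKK1 in scrambled-shRNA cells to 0.689 of the untreated mean, a log2 fold change of -0.53 ± 0.1 (SE; limma adjusted p = 0.022). Of the 5324 genes in that fit, 6.89% were called in either direction and 2.22% as lower. The call was lost without any single scrambled-shRNA library (adjusted p = 0.13 to 0.20) and with the replicate number as a block (0.066). In SOX4-shRNA cells DKK1 was at 0.843 of the untreated mean (-0.24 ± 0.1, adjusted p = 0.20), and the difference of the responses was 0.29 (95% confidence interval -0.04 to 0.62, adjusted p = 1.0). As a description, the SOX4-shRNA mean was 0.614 of the scrambled-shRNA mean untreated (log2 fold change -0.69) and 0.751 with TGF-β (-0.4). DKK1 rests on 808 to 1885 reads per library.

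DKK3, a member of the Dickkopf family that is not known as a classical LRP inhibitor, was abundant and differed from DKK1 in direction. Its 3 transcripts summed to 65.7 and 61.6 FPKM in untreated scrambled-shRNA cells, 84.6 and 82.9 with TGF-β, 71.8 and 65.5 in untreated SOX4-shRNA cells, and 92.7 and 88.7 with TGF-β. The TGF-β-treated libraries all lay above the untreated libraries of their kind. The main transcript, NM_001018057, had a log2 fold change of 0.38 ± 0.08 in both kinds of cell (SE; limma adjusted p = 0.13 in each). Summed over transcripts, DKK3 was at 0.39 ± 0.1 in scrambled-shRNA cells (adjusted p = 0.062) and at 0.4 ± 0.1 in SOX4-shRNA cells (adjusted p = 0.059). Scaling the libraries by the upper quartile or the median ratio moved both below 0.05 (adjusted p = 0.041 to 0.044), and so did fitting the compared groups alone in scrambled-shRNA cells (0.026). Between shRNAs the means differed by 1.08 times in either condition. The whole reads of DKK3 were found with its main transcript at 10 times its lowest reading in every library, so its level rests on that reading.

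Of the receptors, FZD2 and FZD7 both transmit Wnt signals at the cell surface. FZD2 was at 6.36 and 3.9 FPKM in untreated and 6.21 and 5.66 in TGF-β-treated scrambled-shRNA cells. It was at 4.91 and 3.21 FPKM in untreated SOX4-shRNA cells and at 5.56 and 7.66 with TGF-β. In scrambled-shRNA cells the 2 untreated libraries lay further apart than the means of the groups. The TGF-β fold change was 0.21 ± 0.24 there (limma adjusted p = 0.65) and 0.6 ± 0.24 in SOX4-shRNA cells (adjusted p = 0.19).

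FZD7 was at 2.82 and 2.45 FPKM untreated and 2.91 and 3.13 with TGF-β in scrambled-shRNA cells. In SOX4-shRNA cells it was at 2.56 and 1.78 untreated, and 2.33 and 2.75 with TGF-β. Its TGF-β fold changes were 0.15 ± 0.15 (limma adjusted p = 0.61) and 0.17 ± 0.15 (adjusted p = 0.57). The 95% confidence intervals were -0.21 to 0.5 and -0.19 to 0.52, so changes of that size in either direction could not be resolved. As a description, SOX4-shRNA means were 0.824 and 0.84 of the scrambled-shRNA means for FZD7, and 0.792 and 1.11 for FZD2.

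TCF7L1, a TCF factor known mainly as a repressor of Wnt target genes, was higher in SOX4-shRNA cells. It held 12.0 and 9.3 FPKM in untreated and 10.4 and 11.8 in TGF-β-treated scrambled-shRNA cells. In SOX4-shRNA cells it held 21.4 and 16.0 untreated, and 23.7 and 29.0 with TGF-β. Every SOX4-shRNA library lay above every scrambled-shRNA library, and the untreated and treated scrambled-shRNA groups overlapped. As a description, the mean ratio was 1.76 untreated (18.7 ± 3.84 against 10.6 ± 1.89 FPKM; SD, n = 2) and 2.36 with TGF-β (26.3 ± 3.72 against 11.1 ± 1.01). TCF7L1 rests on 319 to 1193 reads per library.

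The log2 fold change of TCF7L1 with TGF-β was 0.07 ± 0.18 in scrambled-shRNA cells (SE; limma adjusted p = 0.86; 95% confidence interval -0.36 to 0.49). In SOX4-shRNA cells the value was 0.48 ± 0.18 (adjusted p = 0.16), with the treated libraries above the untreated ones. The difference of the responses was 0.41 (95% confidence interval -0.18 to 1.01, adjusted p = 1.0).

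TCF7, which encodes the factor known as TCF1, was higher with TGF-β in both kinds of cell. Its transcripts summed to 1.58 and 1.96 FPKM in untreated scrambled-shRNA cells and to 3.94 and 3.28 with TGF-β, and to 2.19 and 1.96 and then 5.22 and 4.54 in SOX4-shRNA cells. The groups with and without TGF-β were apart by more than 1 FPKM in each kind of cell. The ratio of means was 2.04 in scrambled-shRNA cells and 2.35 in SOX4-shRNA cells. Its main transcript NM_201632 did not pass the planned test, at 0.56 ± 0.27 (SE; limma adjusted p = 0.49) and 1.01 ± 0.27 (adjusted p = 0.21).

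The sum over TCF7 transcripts passed in both, at 0.73 ± 0.14 (SE; limma adjusted p = 0.022) and 0.93 ± 0.14 (adjusted p = 0.0074). The value in SOX4-shRNA cells passed in each fit that left out a library (adjusted p at most 0.04). In scrambled-shRNA cells it was lost without any single scrambled-shRNA library (0.076 to 0.20) and with a replicate block (0.053). The difference of the responses was 0.2 (95% confidence interval -0.26 to 0.66). As a description, SOX4-shRNA means were 1.17 and 1.35 times the scrambled-shRNA means.

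LEF1, the factor after which the family is named together with TCF, stood lower in SOX4-shRNA cells. Its transcripts summed to 4.37 and 4.28 FPKM untreated and 4.38 and 5.01 with TGF-β in scrambled-shRNA cells. In SOX4-shRNA cells the sums were 3.14 and 2.48 untreated, and 2.77 and 1.37 with TGF-β. The highest SOX4-shRNA library was below the lowest scrambled-shRNA library. As a description, the ratio of means was 0.649 untreated and 0.442 with TGF-β. The reads of LEF1 were 203, 145, 178 and 184 in scrambled-shRNA libraries and 115, 112, 101 and 62 in SOX4-shRNA libraries.

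TGF-β gave LEF1 sums a log2 fold change of 0.09 ± 0.21 in scrambled-shRNA cells (limma adjusted p = 0.83) and -0.34 ± 0.21 in SOX4-shRNA cells (adjusted p = 0.38). By transcript, NM_001166119 was at 0.1 ± 0.42 (adjusted p = 0.96) and -0.3 ± 0.42 (adjusted p = 0.88), and NM_016269 at -0.45 ± 0.22 (adjusted p = 0.51) and -0.3 ± 0.22 (adjusted p = 0.71). The difference of the responses of the sum was -0.44 (95% confidence interval -1.13 to 0.26). The sum in SOX4-shRNA cells rests on single libraries: it was -0.68 without TGF-β replicate 1 (adjusted p = 0.065) and -0.01 without TGF-β replicate 2 (0.99), and the difference of the responses was -0.77 and -0.1.

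TCF7L2, the factor known as TCF4 in the intestine, was the steadiest of the DNA-binding factors as a sum over transcripts. Its 13 transcripts summed to 7.54 and 6.43 FPKM untreated and 6.53 and 5.61 with TGF-β in scrambled-shRNA cells, and to 6.49 and 6.11 and then 6.61 and 5.72 in SOX4-shRNA cells. All 4 groups overlapped, and the ratios of means lay between 0.87 and 1.02. The fold changes of the sum with TGF-β were -0.17 ± 0.13 (limma adjusted p = 0.47) and -0.03 ± 0.13 (adjusted p = 0.93). By transcript, NM_001146274 was at -1.05 ± 0.42 (adjusted p = 0.38) and -0.7 ± 0.42 (adjusted p = 0.62). NM_001146283 was at 0.49 ± 0.27 (adjusted p = 0.56) and -0.36 ± 0.27 (adjusted p = 0.71). NM_001198531 was at 0.31 ± 0.75 (adjusted p = 0.93) and 1.1 ± 0.75 (adjusted p = 0.67). Whole reads were not recovered for this gene, so its lost decimal marks were read by closeness between libraries, which favours similar values.

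AXIN2, a feedback target of canonical Wnt signalling, was close to the limit of detection. It gave 12 and 8 reads in untreated scrambled-shRNA libraries, 10 and 9 with TGF-β, 3 and 5 in untreated SOX4-shRNA libraries, and 3 and 9 with TGF-β. In FPKM the highest library was at 0.177, so AXIN2 stayed below the filter on low values and entered none of the tests above. The ratio of the TGF-β-treated to the untreated mean was 0.985 in scrambled-shRNA and 1.5 in SOX4-shRNA cells, and reads this few do not settle whether AXIN2 differed.

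**Figure D2:**
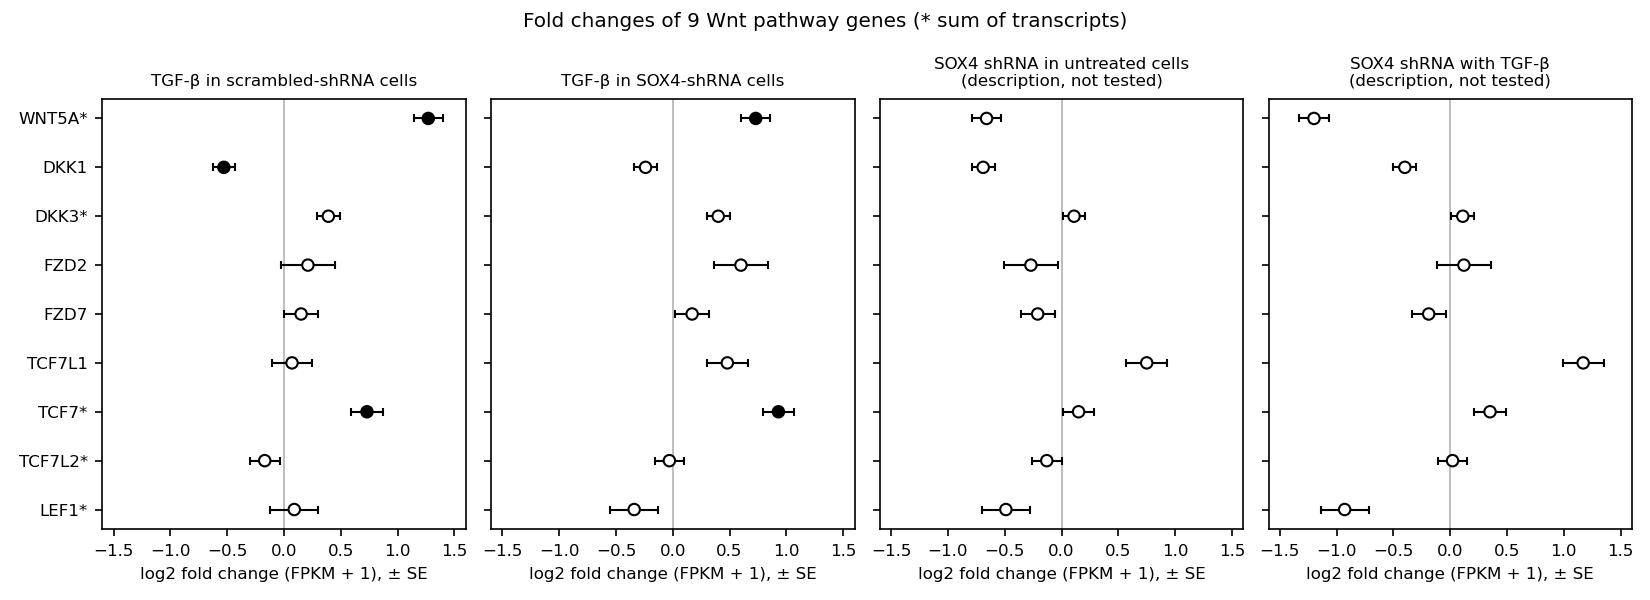
Log2 fold changes on the FPKM + 1 scale with SE for 9 members (points) in 4 contrasts; filled points passed at a limma adjusted p under 0.05, asterisks mark sums over transcripts, and the shRNA contrasts are shown without a test. WNT5A and TCF7 are filled and to the right of 0 with TGF-β in both kinds of cell, and DKK1 is filled and to the left in scrambled-shRNA cells. WNT5A passed the filter on low values through the group where it was high.

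Counted without WNT5A, 1 of the 8 other members in these fits was called higher (TCF7, as a sum) and 1 lower (DKK1) with TGF-β in scrambled-shRNA cells. In that fit of 5329 genes, 6.92% were called, 4.71% as higher and 2.21% as lower. The level of DKK1 in these same libraries helped choose the set, so its call is not independent of that choice. Nothing is read from its place in the count. In SOX4-shRNA cells 1 of the 8 was called higher (TCF7) and 0 lower, where 7.83% of genes were called, 5.72% as higher and 2.1% as lower. Without regard to the test, 6 of the 10 members had TGF-β-treated and untreated libraries that did not overlap in scrambled-shRNA cells, where 62.8% of all genes did so, and 6 in SOX4-shRNA cells against 44.1%.

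No member passed the test of the difference between the TGF-β responses. With limma 0 of 5324 genes were called there (0.0%), 156 had an unadjusted p under 0.05, and voom on the whole reads also called 0, with 151 at an unadjusted p under 0.05. Between shRNAs the libraries of 6 of 10 members did not overlap untreated (46.3% of all genes) and those of 8 did not with TGF-β (46.5%). The choice of members used those contrasts, and nothing is read from these counts.

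The genes whose profiles over the 8 libraries came closest to DKK1 were PGD, SCLY and ITGA10, out of 5320 compared. PGD encodes an enzyme of the pentose phosphate pathway, SCLY a selenocysteine lyase and ITGA10 a collagen-binding integrin chain. The root mean square difference of their centred log2(FPKM + 1) values from DKK1 was 0.106, 0.114 and 0.114. The median of this difference over all compared genes was 0.39, and DKK1 itself varied by 0.344 around its mean. The mean of PGD ran from 127 FPKM (scrambled shRNA, untreated) to 75.8 (SOX4 shRNA, TGF-β), with its highest and lowest group the same as for DKK1. PGD was chosen for its closeness over these same libraries, so nothing is read from that likeness.

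For TCF7L1 the closest were TNFAIP2, a gene induced by tumour necrosis factor, the interferon-response factor IRF1 and the stress-response gene DDIT4, with differences of 0.067, 0.148 and 0.193. The median difference from TCF7L1 over all compared genes was 0.571, and TCF7L1 itself varied by 0.533 around its mean. TNFAIP2 was at 2.65 and 1.83 FPKM in untreated and 2.32 and 2.66 in TGF-β-treated scrambled-shRNA cells. It was at 4.62 and 3.52 in untreated SOX4-shRNA cells, and 5.64 and 7.67 with TGF-β. In each of the 4 groups the library with more TCF7L1 was also the library with more TNFAIP2. TNFAIP2 was chosen for its closeness over these same libraries, so nothing is read from that order.

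**Figure D3:**
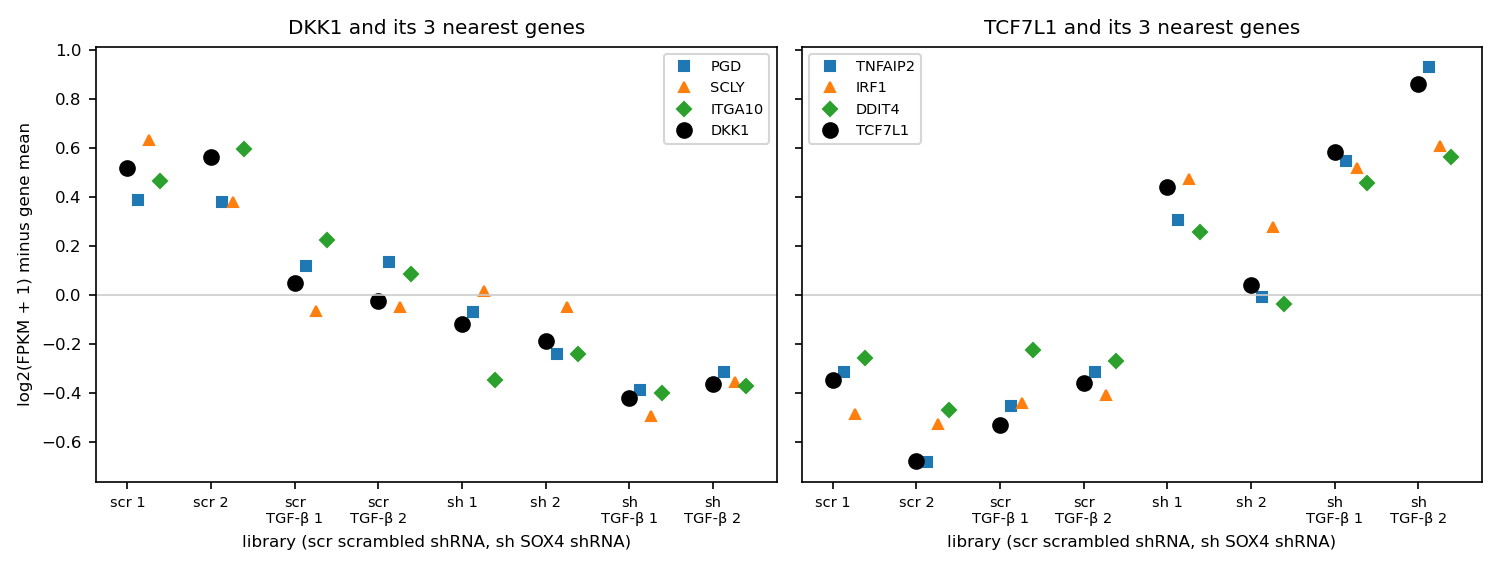
Centred log2(FPKM + 1) of DKK1 (left) and TCF7L1 (right), black circles, with the 3 genes of the closest profile (coloured symbols), in each of the 8 libraries. DKK1 and its neighbours run from above 0.3 in untreated scrambled-shRNA libraries to below -0.3 in TGF-β-treated SOX4-shRNA libraries, and TCF7L1 lies below 0 in all scrambled-shRNA and above 0 in all SOX4-shRNA libraries.

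The other genes of the pathway were taken from 8 lists of 104 genes in all, none of them a member. Of these, 31 were in the fit of whole-read genes and 41 stayed below 1 FPKM in every library. The other 32 had transcripts whose decimal marks were not settled from whole reads. With TGF-β, 1 of the 31 rose and 0 fell in scrambled-shRNA cells, against 6.89% of all genes called (4.68% higher, 2.22% lower). In SOX4-shRNA cells 7 rose and 2 fell, against 7.76% (5.67% higher, 2.08% lower). Summed at their most likely readings, 3 of these 32 were called with TGF-β in scrambled-shRNA cells and 1 in SOX4-shRNA cells, in a fit of gene sums over all genes. A mark read wrongly moves a value by 10 times or more, so these calls are not added to the others. The share of all genes called in that fit is not given here. Whether these counts exceed that share was not tested, and nothing is read from them. The median of the 31 log2 fold changes was 0.01 and 0.08, beside -0.03 and -0.04 over all genes.

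Among the secreted inhibitors, SFRP1, a decoy that binds Wnt ligands, was the only gene of 14 in the fit, and 11 were below 1 FPKM. It was at 21.9 and 22.1 FPKM in untreated and 37.6 and 37.2 in TGF-β-treated scrambled-shRNA cells, and at 32.1 and 30.7 and then 65.4 and 60.3 in SOX4-shRNA cells. No library of 1 group lay within the range of another. With TGF-β it rose in scrambled-shRNA cells (0.74 ± 0.1, SE; limma adjusted p = 0.0071) and in SOX4-shRNA cells (0.98 ± 0.1, adjusted p = 0.0014). The SOX4-shRNA cells were higher by 0.49 ± 0.1 untreated (adjusted p = 0.039) and by 0.73 ± 0.1 with TGF-β (adjusted p = 0.009), where 3.93% and 3.83% of all genes were called.

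The rise of SFRP1 with TGF-β in SOX4-shRNA cells passed in each of 20 alternative fits. That in scrambled-shRNA cells was lost without any single scrambled-shRNA library (adjusted p = 0.059 to 0.11), and the difference between shRNAs with TGF-β was lost without either TGF-β-treated scrambled-shRNA library (0.11 and 0.13). The untreated difference was lost in 10 of 20 fits (up to 0.22).

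Among 18 other Wnt ligands, 5 were in the fit and 11 were below 1 FPKM. With TGF-β in SOX4-shRNA cells 3 rose and 0 fell, where 5.67% of all genes were called higher and 2.08% lower. The median over the 5 was 0.58. WNT7A was at 12.0 and 8.95 FPKM untreated and 22.5 and 27.8 with TGF-β (1.19 ± 0.19, SE; limma adjusted p = 0.011). WNT7B (0.7 ± 0.16, adjusted p = 0.039) and WNT3 (0.58 ± 0.14, adjusted p = 0.047) also rose. In scrambled-shRNA cells 0 of the 5 was called, where 6.89% of all genes were, and the median was 0.18. The mean of WNT7A there was 13.1 FPKM untreated and 21.6 with TGF-β (limma adjusted p = 0.068). WNT7A lost its call without TGF-β-treated SOX4-shRNA replicate 2 (adjusted p = 0.061), among all kept transcripts (0.094) and among gene sums of all genes (0.051). The call was lost for WNT3 in each of the 8 fits that left out a library (0.054 to 0.20), and for WNT7B in 6 of them (up to 0.16).

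Among 14 other receptors and co-receptors, 5 were in the fit and 3 below 1 FPKM. FZD5 fell with TGF-β in SOX4-shRNA cells, from 5.37 and 5.17 to 3.29 and 2.64 FPKM (-0.66 ± 0.13, SE, limma adjusted p = 0.022). In scrambled-shRNA cells FZD5 was at 4.96 and 4.29 FPKM untreated and 2.93 and 3.07 with TGF-β (-0.49 ± 0.13, adjusted p = 0.062). The difference of the responses was -0.17 ± 0.18 and did not pass. FZD8 was lower in untreated SOX4-shRNA cells, at 0.965 and 0.389 against 3.43 and 2.28 FPKM (-1.21 ± 0.21, adjusted p = 0.022), where 3.93% of all genes were called in either direction. It passed the filter on low values through the scrambled-shRNA groups, where it was high, and had an adjusted p of 0.031 in a limma fit without that filter. Each lost its call in 5 of the 8 fits that left out a library (adjusted p up to 0.11 for FZD5 and 0.14 for FZD8).

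Of 16 genes of the cytoplasmic relay, 7 were in the fit. AMER1, a scaffold of the destruction complex, fell with TGF-β in SOX4-shRNA cells from 3.82 and 3.55 to 1.87 and 2.13 FPKM (-0.64 ± 0.12, SE; limma adjusted p = 0.018; lost in 6 of 8 fits that left out a library, up to 0.074). None of the 7 was called in scrambled-shRNA cells, where 6.89% of all genes were. AMER1 was there at 2.2 and 2.33 FPKM untreated and 1.32 and 1.43 with TGF-β. The sum of CTNNBIP1, a gene with unsettled readings named after its value was seen, was called with TGF-β in scrambled-shRNA cells (3.17 ± 0.35, SE). Between shRNAs with TGF-β it was called at -3.87 ± 0.35. Its readings were chosen by closeness between libraries, which makes the scatter small, so nothing is read from these calls. Of 9 genes of the R-spondin module 2 were in the fit, and of 11 nuclear co-factors 4. Of these, 0 were called in any of the 4 pairwise contrasts, where 3.83% to 7.76% of all genes were. Neither of the 2 genes of ligand secretion was in the fit.

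Among 20 reported Wnt target genes, 7 were in the fit and 8 were below 1 FPKM. With TGF-β in SOX4-shRNA cells the median was 0.45, and 0 fell and 3 rose, where 2.08% of all genes were called lower and 5.67% higher. They were JUN (0.62 ± 0.14, SE; limma adjusted p = 0.037), a component of the AP-1 factor, BAMBI (0.68 ± 0.17, adjusted p = 0.048), a decoy receptor of TGF-β signalling, and the cyclin CCND1 (0.45 ± 0.1, adjusted p = 0.035). All of them also respond to signals other than Wnt. CCND1 was at 82.5 and 77.7 FPKM untreated and 108 and 112 with TGF-β. In scrambled-shRNA cells 0 of the 7 was called, where 6.89% of all genes were, and the median was 0.34. Of the 5 other targets, summed at unsettled readings, CD44 (0.51 ± 0.09, SE) and EPHB2 (2.02 ± 0.24) were called there. CD44 was also called in SOX4-shRNA cells (0.59 ± 0.09). Between shRNAs with TGF-β, EPHB2 was at -2.57 ± 0.24 and CD44 at -0.57 ± 0.09. Both were named after their values were seen. Their readings were chosen by closeness between libraries, so nothing is read from these calls. BAMBI and CCND1 lost their calls in each fit that left out a library, and JUN in 7 of the 8 (adjusted p up to 0.18 for BAMBI, 0.14 for CCND1 and 0.15 for JUN).

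**Figure D4:**
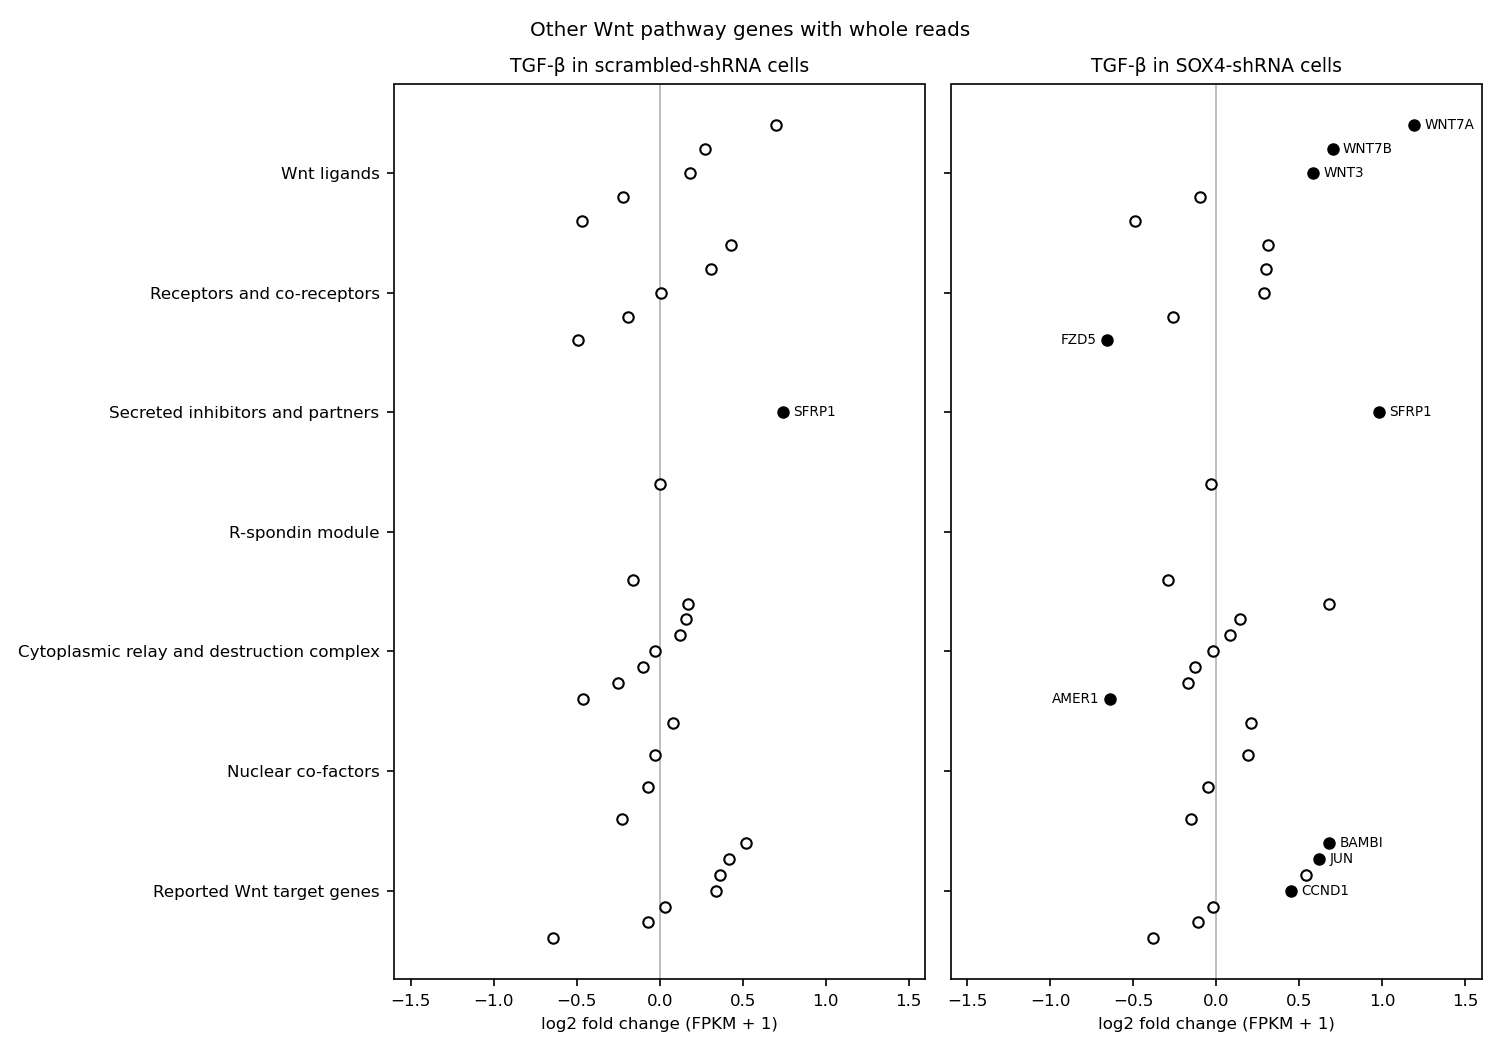
Log2 fold changes with TGF-β (x axis, FPKM + 1 scale) of the 31 other Wnt pathway genes with whole reads, by list (y axis), in scrambled-shRNA (left) and SOX4-shRNA cells (right); filled, named points passed at a limma adjusted p under 0.05. SFRP1 is filled on both sides, at 0.74 and 0.98, and 8 further genes are filled only on the right, where the difference between the sides passed the test for 0 of them.

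The members lie on several chromosomes (GENCODE 44 lifted to GRCh37, the hg19 build). DKK1 is on chromosome 10 at 54074041 to 54077802 (plus strand), TCF7L1 on chromosome 2 at 85360515 to 85537510 (plus strand), and WNT5A on chromosome 3 at 55499743 to 55524567 (minus strand). In that annotation, exons of DKK1, DKK3, TCF7, TCF7L2 and LEF1 overlap an exon of a gene on the opposite strand (PRKG1-AS1 for DKK1, LEF1-AS1 for LEF1), and so do those of SOX4, CCND1, FZD8, IRF1, ITGA10 and TNFAIP2. Whether reads were counted by strand is not given in the sources used here, so reads of the partner cannot be told apart there. On the same strand AXIN2, FZD8, SCLY and WNT7B overlap another annotated gene. TCF7L1, WNT5A, FZD2 and FZD7 overlap none.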

How the data were processed

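The authors' deposited table holds FPKM for 48175 RefSeq transcripts in 8 libraries, made with TopHat2 2.0.9, Cufflinks 2.2.1 and Cuffdiff on hg19, per the submitters' processing notes. Per the labels' protocols the kit was stranded and depleted of ribosomal RNA, while another label names polyA RNA. In 34.1% of the deposited cells, other values than counts or ratios, the decimal mark was lost; 13.9% in damaged exponent notation were set to 0. Marks were restored by requiring whole numbers of reads in every library (within 0.003 reads). This settled 5363 of 5662 genes with 1 transcript searched, against 1 of 1000 with random last digits. Where several readings gave whole reads, the likeliest was kept, and closeness between libraries and groups counted towards it. A posterior of at least 0.95 was reached by 5324 genes. Sums over transcripts were whole for WNT5A, LEF1, TCF7 and DKK3 (within 0.0026 reads) and remained unsettled for TCF7L2.

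log2(FPKM + 1) was fitted with limma 3.58.1 (R 4.3.3, intensity trend, 4 groups, 4 residual degrees of freedom) over genes with at least 1 FPKM in at least 2 libraries, with Benjamini-Hochberg adjustment at 0.05. Members with several transcripts were planned in a fit of 19396 transcripts; their sums were added after seeing the data. Members and lists were chosen with earlier results of these data known. Named are the members, SOX4, up to 4 called genes per list and contrast, and the 3 closest profiles to DKK1 and TCF7L1. The restoring and the fit were tested on simulated data. RefSeq identifiers matched a symbol for 47097 rows (97.76%). No column was left out. Replicate numbers did not pair the libraries alike across all 4 groups, and the main fit used no block. Replicate differences correlated at 0.49 between the untreated and 0.261 between the treated groups, and below 0 between untreated and treated ones.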

Additional observations from a re-analysis of the deposited data

How the results depend on the processing

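Counts of called genes depended on the fit more than the members' directions did. In the order TGF-β in scrambled-shRNA cells, TGF-β in SOX4-shRNA cells, SOX4 shRNA untreated and SOX4 shRNA with TGF-β, 367, 413, 209 and 204 genes were called. With a replicate block the counts were 166, 225, 121 and 88, and with the crossed block, added after seeing the data, 1235, 1166, 755 and 583. With all kept transcripts they were 155, 205, 126 and 88. Compared groups alone gave 914, 113 and 61 in the first 3, and the stricter filter (mean of at least 5 FPKM) 236 for TGF-β in scrambled-shRNA cells, and 89 and 71 for the shRNA contrasts. Leaving out 1 library gave 23 to 411, 176 to 269, 39 to 216 and 31 to 201. The interaction had 0 calls, 3 with all kept transcripts, 43 with sums of all genes at their most likely readings, and 0 to 1 without a library.

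The numbers did not pair the libraries alike across all 4 groups. Replicate differences correlated at -0.512 to 0.49 between groups (5324 genes), with -0.158 between the scrambled-shRNA groups. The replicate block ended the calls of DKK1 and of the TCF7 sum in scrambled-shRNA cells (adjusted p = 0.066 and 0.053) and of WNT3, WNT7B, JUN, BAMBI and CCND1 with TGF-β in SOX4-shRNA cells (0.077 to 0.098), and the untreated shRNA difference of SFRP1 (0.10). The correlation was 0.49 between the untreated and 0.261 between the treated groups, and below 0 between untreated and treated ones, so the crossed block set replicate 1 of the untreated beside replicate 2 of the treated groups. With TGF-β it ended no member's call and added 4, DKK3 in both kinds of cell and TCF7L1 and FZD2 in SOX4-shRNA cells.

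With TGF-β, directions turned for values that had not passed. TCF7L1 with TGF-β in scrambled-shRNA cells became -0.01 with voom, and -0.1 and -0.02 without untreated or treated replicate 2 (up to 0.23 without others). FZD2 there ran from -0.09 without untreated replicate 2 to 0.5, and FZD7 in SOX4-shRNA cells from -0.01 without untreated replicate 2 to 0.34. The TCF7L2 sum in SOX4-shRNA cells became 0.01 and 0.06 without untreated replicate 1 or treated replicate 2, and was -0.12 at its lowest. In the interaction, FZD7 ran from -0.16 through -0.06, -0.05 and -0.02 to 0.2 over the libraries left out, DKK3 was -0.06, -0.04, -0.02 and -0.01 in some fits against 0.01 for its sum and 0.07 at most, and WNT5A turned to 0.38 with voom. The cause of these changes was not tested. The stricter filter left no value for WNT5A, TCF7, LEF1, FZD7, WNT3, FZD5, FZD8, AMER1 and BAMBI, voom none for TCF7L2, and the compared groups alone none for the interaction. Depth limits AXIN2, at 3 to 12 reads, most of all members.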
